A study of Mus musculus with 18 samples.

Results

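Whole-genome bisulfite sequencing (WGBS), which reads the share of molecules methylated at each cytosine, was compared between 2 cell populations of the spleen, CD11b+ myeloid cells and CD4+ T lymphocytes, at regions that were less methylated in the CD11b+ cells of wild-type (WT) mice. The regions were chosen by their WT values: autosomal regions listed for both cell types, with the listed stretches overlapping by at least 50% of both lengths, in which the WT CD4+ mean was at least 20 percentage points above the WT CD11b+ mean. By this rule, 5742 of 135766 shared autosomal regions were selected, or 4.23% of them. A further 1727 regions, or 1.27%, had a WT CD11b+ mean at least 20 points above the WT CD4+ mean and served as the opposite set.

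The 4 groups were CD11b+ and CD4+ cells of WT (Dnmt3a+/+) mice and of Dnmt3a R878H/+ mice, with 4 mice per group. R878H/+ mice carry 1 mutant copy of Dnmt3a in blood cells, switched on by a Vav1-iCre transgene that acts throughout hematopoiesis, so that both lineages hold the mutation. The allele is therefore not specific to myeloid or T cells. Mice of both sexes were pooled, and controls described as Dnmt3a+/+ could either carry the transgene with 2 normal copies or carry the floxed allele without the transgene, with no statement of which gave these cells. Cells were purified on magnetic columns and not by a marker panel, and in such bulk samples a smaller share of one cell type cannot be told apart from lower methylation within a cell type. The deposited values are 1 mean per group and region, so no error between mice and no test could be computed, the files give no sequencing depth behind any value, and intervals below are 95% Wilson intervals over regions, which are not replicates.

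DNMT3A is a de novo DNA methyltransferase, and the R878H change corresponds to the hotspot mutation of human clonal hematopoiesis. Blood cells lose methylation at enhancers and promoters of their own lineage while they differentiate, and myeloid enhancers are typically bound by PU.1, the ETS factor needed for myeloid and B cells, together with C/EBP factors, which drive granulocyte and monocyte differentiation. CD4+ T cells use other factors, among them TCF7, RUNX and E proteins.

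Stretches of 6 selected regions are printed because they lie near genes described in the next paragraphs and hold letters that were more frequent in the selected regions than in shared regions at large. They are written 5' to 3' on the plus strand of mm10 (RefSeq GRCm38.p6), from the middle of each region where it exceeded 300 bases, and the capitals mark the PU.1 core GAGGAA and the C/EBP letters TTGCNNAA on either strand. The coordinates are chr1:74156492-74156746 in an intron of Cxcr2, chr15:64278148-64278276 in an intron of Asap1, chr5:149274871-149275170 in an intron of Alox5ap, chr12:85490662-85490961 between genes near Fos, chr16:93031727-93032026 between genes near Runx1 and chr3:136084067-136084366 in an intron of Bank1. Each holds between 3 and 9 CpG dinucleotides.
Cxcr2: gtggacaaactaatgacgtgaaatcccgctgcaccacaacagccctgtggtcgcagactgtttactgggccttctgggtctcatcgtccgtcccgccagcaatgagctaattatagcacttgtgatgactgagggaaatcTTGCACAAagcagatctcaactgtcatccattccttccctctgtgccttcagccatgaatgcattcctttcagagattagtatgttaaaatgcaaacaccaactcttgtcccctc
Asap1: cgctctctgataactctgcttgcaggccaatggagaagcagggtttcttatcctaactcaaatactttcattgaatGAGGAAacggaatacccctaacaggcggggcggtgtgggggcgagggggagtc
Alox5ap: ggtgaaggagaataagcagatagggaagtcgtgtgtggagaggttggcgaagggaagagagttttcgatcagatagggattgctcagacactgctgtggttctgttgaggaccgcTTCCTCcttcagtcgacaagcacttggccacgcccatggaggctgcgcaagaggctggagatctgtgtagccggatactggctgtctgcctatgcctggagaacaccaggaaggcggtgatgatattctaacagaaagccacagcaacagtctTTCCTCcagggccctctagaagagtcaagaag
Fos: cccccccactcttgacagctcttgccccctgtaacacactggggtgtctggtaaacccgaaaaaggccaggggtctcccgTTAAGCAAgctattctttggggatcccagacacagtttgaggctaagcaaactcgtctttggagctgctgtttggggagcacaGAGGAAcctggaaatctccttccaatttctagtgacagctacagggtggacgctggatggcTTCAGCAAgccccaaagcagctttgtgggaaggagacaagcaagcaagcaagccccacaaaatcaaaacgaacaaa
Runx1: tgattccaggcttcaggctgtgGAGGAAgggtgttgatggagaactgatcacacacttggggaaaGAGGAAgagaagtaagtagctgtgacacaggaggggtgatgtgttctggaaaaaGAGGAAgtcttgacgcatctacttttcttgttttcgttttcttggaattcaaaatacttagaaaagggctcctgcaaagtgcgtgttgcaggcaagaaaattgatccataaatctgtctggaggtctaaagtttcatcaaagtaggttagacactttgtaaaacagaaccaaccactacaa
Bank1: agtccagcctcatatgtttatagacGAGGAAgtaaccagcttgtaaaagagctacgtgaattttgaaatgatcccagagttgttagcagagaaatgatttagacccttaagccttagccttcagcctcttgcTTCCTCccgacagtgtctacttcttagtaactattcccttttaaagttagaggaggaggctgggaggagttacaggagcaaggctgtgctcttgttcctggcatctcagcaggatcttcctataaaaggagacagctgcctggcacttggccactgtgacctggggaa

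Most selected regions were intermediately methylated in WT CD11b+ cells and more highly methylated in WT CD4+ cells, although the rule set only the gap and the lowest WT means were 1.42% and 24.4%. The median methylation level was 49.6% in WT CD11b+ cells (interquartile range 37.8 to 59.9%) and 76.9% in WT CD4+ cells (65.7 to 86.0%). R878H/+ cells were lower in both lineages, with a median of 29.7% in CD11b+ cells (19.0 to 41.1%) and 55.4% in CD4+ cells (41.0 to 70.3%). Over all shared regions the same 4 medians were 86.0% in WT CD11b+, 77.0% in R878H/+ CD11b+, 87.7% in WT CD4+ and 77.8% in R878H/+ CD4+ cells. The number of selected regions below 20% methylation in CD11b+ cells was 291 in WT and 1553 in R878H/+ mice, while the number at 80% or above in CD4+ cells was 2417 in WT and 619 in R878H/+ mice. As shares, the first pair was 5.07% and 27% (2.0% and 4.9% of all shared regions), and the second pair 42.1% and 10.8% (69.1% and 44.8%). These WT levels were selected on and are a description. At the edge of the rule, the regions nearest to Fmo9, Castor1 and Usp43 were just inside with a WT gap of 20 points, and those nearest to Mrpl1, Cog6 and Supt20 were just outside with 19.997, 19.996 and 19.996 points.

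**Figure D1:**
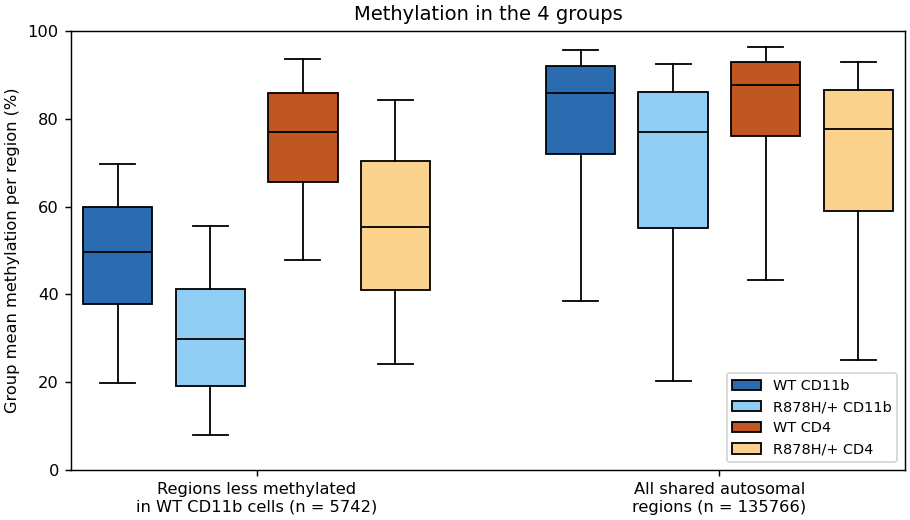
Group mean methylation per region, in percent, in the 4 groups, for the 5742 selected regions and for all 135766 shared autosomal regions. Boxes span the quartiles with a line at the median, and whiskers reach the 5th and 95th percentiles over regions. The 4 boxes of the selected regions are ordered R878H/+ CD11b, WT CD11b, R878H/+ CD4 and WT CD4 from low to high, with medians of 29.7, 49.6, 55.4 and 76.9%.

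The separation of the lineages was present in R878H/+ mice, whose values the 20-point rule did not use. The stretches themselves were listed by the authors' comparison of WT with R878H/+ cells, so R878H/+ values were not fully apart from the listing. The median gap, CD4+ mean minus CD11b+ mean, was 25.2 points in WT cells (the selected measure) and 24.3 points in R878H/+ cells (interquartile range 18.1 to 30.8). Over all shared regions the medians were 1.23 points in WT and 1.08 points in R878H/+ cells. The R878H/+ gap was again 20 points or more in 3894 selected regions (67.8%, 66.6 to 69.0%), against 5.03% of all shared regions. It lay between 10 and 20 points in 1506 regions, between 0 and 10 points in 318, and below 0 in 24 (0.418%, against 42.3% of all shared regions). It was larger than the WT gap in 2347 (40.9%, against 47.1%). Read from the other side, 57.1% of the 6825 shared regions with an R878H/+ gap of 20 points or more were selected regions. The other 2931 had a median WT gap of 15.1 points, and 84.5% of them had a WT gap of at least 10 points. In the opposite set, 1188 of 1727 regions (68.8%) kept a CD11b+ mean at least 20 points above the CD4+ mean in R878H/+ mice.

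The listed stretches of the 2 cell types rarely had the same ends, so part of a gap can come from different cytosines, and this would enter both genotypes. Among the 325 selected regions with identical ends the median gap was 24.5 points in WT and 23.4 points in R878H/+ cells, and 66.2% kept 20 points or more. Regions overlapping by 50 to 60% were selected in 5.17% of cases, and those overlapping by 95 to 100% in 3.43%. The largest WT gap was 63.4 points in the former and 45.3 points in the latter.

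**Figure D2:**
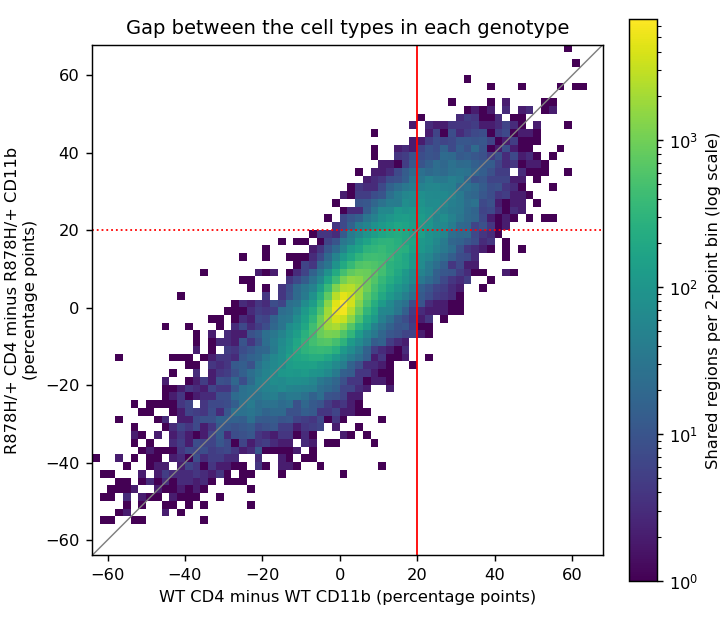
Gap between cell types (CD4 mean minus CD11b mean, percentage points) in WT mice on the horizontal axis and R878H/+ mice on the vertical axis, for all 135766 shared regions, coloured by regions per 2-point bin on a log scale. The solid line is the 20-point rule in WT cells, the dotted line the same value in R878H/+ cells and the grey diagonal equality. Of the 5742 regions right of the solid line, 3894 lie on or above the dotted line and 24 below 0.

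Whether the gap stayed above 20 points varied with the methylation left in WT CD11b+ cells. Of the regions below 20% in WT CD11b+ cells, 38.1% kept a gap of 20 points or more in R878H/+ mice. This share was 54.2% at 20 to 40% methylation, 68.9% at 40 to 60% and 85.1% at 60 to 80%. The median R878H/+ gap in the same order was 17.0, 21.1, 24.3 and 28.3 points. A region with little methylation in WT CD11b+ cells could lose little there, and the median CD11b+ loss was 7.1 points in the lowest class while the CD4+ loss was 18.3 points. In the highest class the order was turned, with a CD11b+ loss of 18.6 and a CD4+ loss of 13.0 points. Since both WT means were selected on, this dependence is a description.

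Methylation was lower in R878H/+ than in WT mice in nearly all selected regions of both lineages. The loss, WT mean minus R878H/+ mean, reached a median of 17.2 points in the myeloid cells (quartiles 11.8 and 23.0) and 18.7 points in the T cells (12.3 and 25.9), against 8.22 and 8.70 points over all shared regions. A loss of 20 points or more was found in 2168 selected regions in CD11b+ cells (37.8%, against 12.7% of all shared regions) and in 2594 in CD4+ cells (45.2%, against 12.9%). In 1448 of these it was found in both lineages, in 720 in CD11b+ cells alone, in 1146 in CD4+ cells alone, and in 2428 regions in neither. These were 25.2%, 12.5%, 20% and 42.3% of selected regions, against 8.13%, 4.61%, 4.82% and 82.4% of all shared regions. R878H/+ means exceeded WT means in 90 regions in CD11b+ cells (1.57%, against 3.42% of all shared regions) and in 13 in CD4+ cells (0.226%, against 2.38%). The WT means enter both the loss and the rule, so these shares are not independent of the choice of regions.

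As a percent of the WT mean, the R878H/+ mean had a median of 62.5% in CD11b+ and 74.3% in CD4+ cells, and it was higher in CD4+ cells in 4709 selected regions (82.0%). Over all shared regions these medians were 90% and 89.6%, and it was higher in CD4+ cells in 51.0%. In the opposite set it was higher in CD4+ cells in 37.0%, so the share followed the side on which the WT means were selected. In 1453 selected regions (25.3%) the R878H/+ CD4+ mean was at or below the WT CD11b+ mean, so that the mean of mutant T cells was no higher than that of WT myeloid cells. Over all shared regions, most of which had no WT gap of this size, this share was 87.5%. An example is the Il1b region described below, with 36.2% in R878H/+ CD4+ cells and 39.7% in WT CD11b+ cells.

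Losses were set beside those of other shared regions of the same WT level. In the class of 50 to 60% WT CD11b+ methylation, the median CD11b+ loss was 19.9 points in selected and 17.8 points in other regions. In CD4+ cells the distance was wider: at 70 to 80% WT CD4+ methylation the loss was 22.5 against 14.4 points, at 80 to 90% it was 17.2 against 9.56 points, and at 90 to 100% it was 10.9 against 5.75 points. At these levels, T cell regions that were less methylated in WT myeloid cells had higher median losses in R878H/+ T cells than other regions. The WT CD4+ mean enters both the rule and the loss, so matching on its level does not remove the selection. The difference is a description. The interquartile ranges overlapped in every class, and least in the 90 to 100% class, where the lower quartile of selected regions was 7.97 points and the upper quartile of others 8.07 points.

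**Figure D3:**
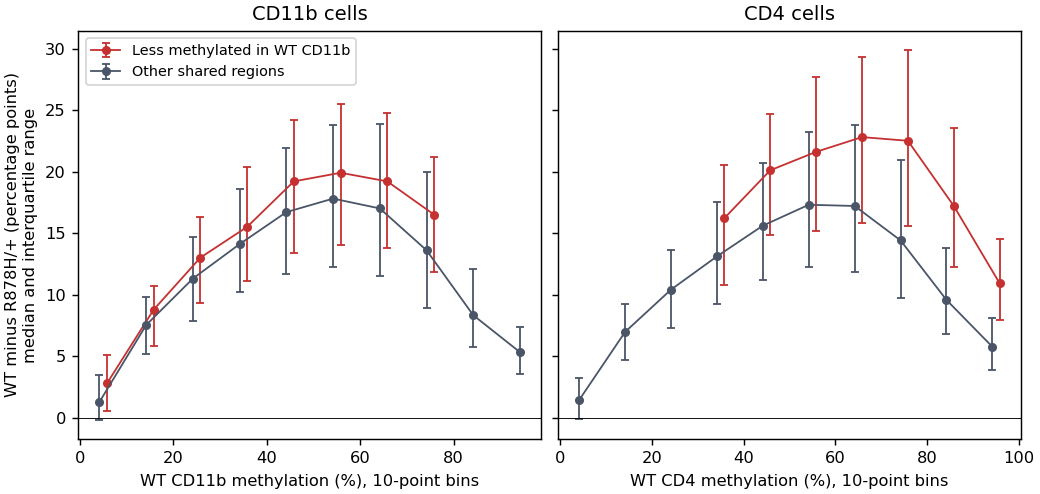
Loss in R878H/+ cells (WT minus R878H/+, percentage points) by WT methylation in 10-point bins, for CD11b cells on the left and CD4 cells on the right. Points are medians and bars interquartile ranges over regions, and bins without selected regions have only the other regions. In CD4 cells at 80 to 90% the selected regions lost a median of 17.2 points and the others 9.56 points.

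Selected regions lay closer to genes than shared regions at large. A promoter, within 1 kb of a protein-coding transcription start, was hit by 663 regions (11.5%, 10.7 to 12.4%), against 6.43% of all shared regions. With stretches overlapping by at least 95%, these shares were 6.99% and 5.08%. Exons held 8.55% against 9.26%, introns 42.7% against 39.9% and intergenic stretches 37.2% against 44.4%. The median distance to the nearest start was 16115 bp, against 26939 bp. Regions at least 50% repeat-masked made up 2.32%, against 5.61%. The share of promoter regions that kept a gap of 20 points or more in R878H/+ mice was 60%, against 70.7% in introns and 66.2% between genes. CpG density moved with the loss: at 1 to 2 CpGs per 100 bp the median CD4+ loss was 17.3 points, and at 3 to 5 it was 21.7 points. In the opposite set promoters made up 13.7%.

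The letters of the PU.1 core, GAGGAA, were present in the central 300 bp of 38.1% of selected regions, 28.8% of all shared regions and 28.5% of the opposite set. The longer GAGGAAGT, which contains the core and is counted in it, was present in 5.97%, 2.72% and 2.66%, and the C/EBP letters TTGCNNAA in 20.2%, 13.2% and 10.4%. The E-box CAGGTG, bound by E proteins of lymphocytes, had the opposite order, with 16.8% of selected regions, 19.8% of all and 26.1% of the opposite set. Letters of other T cell factors differed less. Shares in the same order were 23.6%, 22.3% and 25.9% for RUNX (TGTGGT), and 17.8%, 20.5% and 20.8% for TCF7/LEF1 (CTTTGA). The ETS letters CAGGAAGT, which are not the PU.1 core, were also more frequent in selected regions, with 5.43%, 3.42% and 4.46%. At GC contents of 40 to 50% the PU.1 core was found in 38.4% of selected and 29.3% of all shared regions, and the C/EBP letters in 22.0% and 13.8%. Both strands were searched, and a match does not show binding. Regions with and without the PU.1 core had R878H/+ gaps of 24.4 and 24.3 points, and those with and without the C/EBP letters 26.5 and 23.9 points. Shares of the CTCF core were 6.08% of selected and 5.84% of all regions, and those of AP-1 11.2% and 10.1%.

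**Figure D4:**
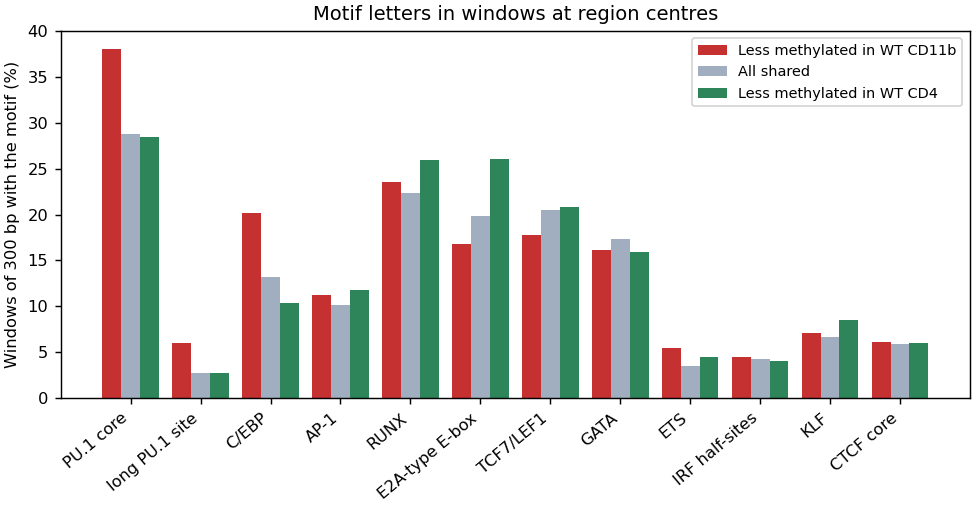
Share of 300-bp windows at region centres that hold each motif on either strand, in percent, for regions less methylated in WT CD11b cells (red), all shared regions (grey) and regions less methylated in WT CD4 cells (green). The red bar is the tallest of its motif at the PU.1 core (38.1%), the long PU.1 site, C/EBP (20.2%) and ETS (5.43%). By small margins it is also the tallest at the IRF half-sites and the CTCF core. The green bar is the tallest at the E-box (26.1%), RUNX (25.9%), TCF7/LEF1 (20.8%), AP-1 (11.8%) and KLF (8.51%), and the grey bar at GATA.

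The lineage labels were checked at marker genes. Within 5 kb of the starts of 8 myeloid markers, WT CD4+ cells were higher in 14 of 19 regions. The median WT gap there was 15.1 points, against 1.23 points over all shared regions (quartiles -1.39 and 5.05). As the latter median was positive, WT CD4+ cells were higher in most shared regions too. The count of 14 of 19 alone therefore does not check the labels. Of the 19, 6 were selected regions, among them 1 of 5 at Csf1r, 1 at Csf3r and 2 at Fcgr3. At T cell markers WT CD4+ cells were higher in 4 of 11 regions, with a median gap of -12.3 points. Of the 11, 0 were selected and 5 belonged to the opposite set, among them the region at Cd4. The WT mean at Cd4 was 90.5% in CD11b+ and 58.9% in CD4+ cells. Over all shared regions, 4.23% were selected and 1.27% were in the opposite set. Itgam, which encodes CD11b itself, and Lyz2 went the other way. The Itgam region had 82.5% in CD11b+ and 63.0% in CD4+ cells, and the Lyz2 region 74.8% and 54.3%. At the B cell marker Cd79a, a selected region, the WT CD11b+ mean was 41.6% and the CD4+ mean 66.4%. The part of other cells of the spleen in these values was not tested.

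Selected regions were nearest to 3701 genes, or 22.8% of the 16198 genes nearest to a shared region. Of these, 2531 genes had 1 and 94 had 5 or more. Genes with a selected region had a median of 11 shared regions, against 4 over all such genes, so genes with many listed regions had more chances to be counted. Another selected region lay within 5 kb of 824 selected regions (14.4%). Foxp1, a forkhead repressor expressed in lymphoid and myeloid cells, led with 17 selected regions of 120 shared. WT CD11b+ means at the 17 ranged from 27.8 to 70.6% and R878H/+ CD11b+ means from 8.62 to 55.0%. WT CD4+ means at Foxp1 ranged from 55.5 to 92.8% and R878H/+ CD4+ means from 23.7 to 82.0%, and the R878H/+ gap was 20 points or more in 10 of 17. Etv6, an ETS repressor of hematopoietic stem cells, had 13 of 79 and a median R878H/+ gap of 30.6 points. Rreb1, a zinc-finger factor of RAS signalling, had 12 of 75, and Smim15 had 10 of 83. Asap1, a GTPase-activating protein of actin remodelling, Jarid2, a partner of a Polycomb complex, and Tns3, a focal adhesion protein, had 9 each, of 45, 97 and 45 shared. Lmo2, the LIM-domain partner of GATA and TAL1 factors, had 8 of 27, Maf, a macrophage and T helper cell factor, 8 of 120, and Prdm1, which encodes BLIMP-1, 8 of 55. All 9 regions at Jarid2 kept an R878H/+ gap of 20 points or more (range 22.1 to 32.3), as did 67.8% of all selected regions. At Lmo2 only 4 of 8 did, and the median loss at Lmo2 was 22.4 points in CD11b+ and 33.2 points in CD4+ cells. The selected regions counted here lay up to 324878 bp from the nearest start for Jarid2 and up to 616925 bp for Maf.

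The 10 largest WT gaps lay between 55.1 and 63.4 points and were nearest to Atp8a2, Coq2, Fam49a, F12, Csnk1e, Phactr4, Hmga1, Bhlhe40, Ywhae and Arl11. The stretches of the 2 cell types overlapped by 50.1 to 79.5% in these 10, so the 2 means cover partly different cytosines. The region in an intron of Atp8a2, which encodes a phospholipid flippase, at chr14:59967623-59968111 had 7.4% in WT and 2.3% in R878H/+ CD11b+ cells. The values in T cells were 70.8% in WT and 58.4% in R878H/+ mice. In the promoter of Csnk1e, which encodes casein kinase 1 epsilon, methylation was 31.1% in WT and 16.1% in R878H/+ CD11b+ cells, against 89.6% and 82.8% in CD4+ cells. This region also had the largest R878H/+ gap, 66.7 points. The other 9 of the 10 largest R878H/+ gaps lay between 53.3 and 62.6 points and were nearest to Coq2, Msrb3, Snx9, Hmga1, Fam49a, Dcakd, Atp8a2, Ppm1h and Plekhs1. Near Msrb3, a methionine sulfoxide reductase gene, the gap was 33.1 points in WT and 58.2 points in R878H/+ mice, as methylation fell from 56.7 to 19.2% in CD11b+ and from 89.8 to 77.4% in CD4+ cells.

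Genes known from myeloid cells were grouped in lists. The share of selected regions in each list stands beside 4.23% of all shared regions. Shares in the opposite set ran from 0% (innate sensing and cytokine genes) to 7.40% (T cell genes), against 1.27% of all shared regions. For myeloid transcription factors, 36 of 486 shared regions (7.41%) were selected, nearest to 15 of 20 genes. At Cebpa, which encodes the C/EBP factor of granulocyte commitment, the region 25676 bp from the start at chr7:35144979-35145425 fell from 51.1% in WT to 22.9% in R878H/+ CD11b+ cells and from 79.4 to 53.6% in CD4+ cells. Its stretches overlapped by 99.8%, and the gap was 28.3 points in WT and 30.6 in R878H/+ mice. The distal region of Zeb2, a zinc-finger repressor required for monocytes and dendritic cells, had 30.2% and 12.3% in WT and R878H/+ CD11b+ cells, against 67.2% and 33.7% in CD4+ cells. The region nearest to Id2, the inhibitor of E proteins, lay 213018 bp from the start. Its values in the same order were 52.2%, 30.1%, 84.1% and 65.0%. The region nearest to Batf3, a dendritic cell factor, lies in an exon of Nsl1 and had 28.6%, 21.8%, 62.6% and 53.0%. Of the 36 regions, 25 kept an R878H/+ gap of 20 points or more, as did 67.8% of all selected regions.

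Myeloid surface receptors had the highest share among the 10 lists, 27 of 181 regions (14.9%), nearest to 18 genes. The intron region of Cxcr2, the receptor for neutrophil chemokines, whose sequence is given above, had 31.8% in WT and 9.12% in R878H/+ CD11b+ cells, against 68.0% and 32.5% in CD4+ cells. R878H/+ T cells here were within 1 point of WT myeloid cells, and both lineages lost methylation. Tlr2, a receptor for bacterial lipoproteins, had a region 3041 bp from its start with 63.6% and 38.3% in CD11b+ cells, against 84.2% and 61.1% in CD4+ cells. The region in an intron of Csf1r, the receptor for macrophage colony-stimulating factor, had 43.0% and 8.87% in CD11b+ and 78.6% and 25.7% in CD4+ cells, losses of 34.1 and 52.9 points. Near Csf2rb, the shared receptor chain for GM-CSF, IL-3 and IL-5, the losses were 16.9 and 16.0 points.

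Among granule and phagocyte effector genes, 19 of 167 regions (11.4%) were selected. At the promoter of Ctsg, which encodes the neutrophil protease cathepsin G, methylation was 31.8% in WT and 17.8% in R878H/+ CD11b+ cells, against 67.2% and 49.0% in CD4+ cells. Alox5ap, needed for leukotriene synthesis, had an intron region with identical ends in both cell types, with 32.3% and 13.2% in CD11b+ and 56.7% and 31.3% in CD4+ cells. The Alox5ap gap was 24.4 points in WT and 18.1 points in R878H/+ mice. The region nearest to Padi4, the enzyme that citrullinates histones in neutrophils, lies in an exon of Padi3 and had losses of 19.6 points in CD11b+ and 30.6 points in CD4+ cells.

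Phagocyte signalling kinases and phosphatases had 21 selected regions of 166 (12.7%). The gap widened from 26.2 to 47.2 points at the region nearest to Pik3cd, the leukocyte PI3-kinase subunit, which lies in an exon of Clstn1, as CD11b+ methylation fell from 67.3 to 39.4% and CD4+ methylation from 93.5 to 86.6%. An intron of Inpp5d, encoding the phosphatase SHIP1, had 52.7% and 37.7% in CD11b+ and 88.3% and 78.7% in CD4+ cells. In an intron of Prkcd, a protein kinase C gene, and one of Tec, a tyrosine kinase gene, the R878H/+ gaps were 38.6 and 17.7 points. Innate sensing and cytokine genes had 9, or 7.76% of their shared regions. The intergenic region near Il1b, which encodes interleukin-1 beta, fell from 39.7 to 22.3% in CD11b+ and from 73.4 to 36.2% in CD4+ cells. Near Osm, encoding oncostatin M, the losses were 16.6 and 29.2 points, in the promoter of Il1rn, encoding the interleukin-1 receptor antagonist, 24.7 and 26.3 points, and at Tlr5, the flagellin receptor, 7.9 and 11.6 points. The loss was larger in CD4+ than in CD11b+ cells at 7 of the 9 regions of this list, at 59.1% of all selected regions and at 52.8% of all shared regions. The same count was 24 of 36 for myeloid transcription factors, 11 of 27 for surface receptors and 10 of 19 for granule and phagocyte effector genes. For signalling kinases and phosphatases it was 13 of 21, and for osteoclast differentiation genes 5 of 10.

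Osteoclast differentiation genes had 10 of 151 (6.62%). Of the 10, 9 kept an R878H/+ gap of 20 points or more, as did 67.8% of all selected regions. The region nearest to Itgb3, the integrin chain of osteoclasts and platelets, had 27.9% and 12.4% in CD11b+ and 76.7% and 42.2% in CD4+ cells. Near Fos, an AP-1 subunit needed for osteoclasts, the values were 45.0% and 27.1%, and 81.4% and 60.2%. An intron of Nfatc1, which encodes the master factor of osteoclast differentiation, had 29.8% and 4.94% in CD11b+ and 53.8% and 24.1% in CD4+ cells, and its R878H/+ gap of 19.1 points was the one below 20. Near Traf6, the adaptor of RANK signalling, the losses were 6.72 and 6.18 points.

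The remaining lists hold genes of other lineages and of stem cells. T cell genes had 16 of 527 (3.04%) in the selected set and 39 (7.40%) in the opposite set. Of the 16 T cell regions, 15 lay over 10 kb from a start, as did 61.4% of all selected regions, and 1 was in a promoter. Those nearest to Cd28, the T cell costimulatory receptor, and Gata3, the T helper 2 factor, lay 76860 and 1121812 bp from the start. The Cd28 region had 33.9% and 10.6% in CD11b+ and 85.8% and 48.1% in CD4+ cells. Near Ctla4, an inhibitory receptor, and at the promoter of Prkcq, the protein kinase C of T cell receptor signalling, CD4+ losses were 36.2 and 35.5 points. B cell genes had 8 of 141 (5.67%), natural killer cell genes 0 of 37, and stem cell and erythroid genes 27 of 520 (5.19%). Over all shared regions the share was 4.23%. Of the B cell genes, Bank1, a B cell adaptor, had 54.6% and 26.6% in CD11b+ and 86.2% and 53.1% in CD4+ cells, and the R878H/+ gaps near Pou2af1, Cd79b and Cd79a were 25.3, 31.4 and 20.3 points. The region nearest to Runx1, a factor of stem cells and many blood lineages, lay 205542 bp from the start. It had 18.1% and 8.05% in CD11b+ and 64.1% and 37.8% in CD4+ cells. In an intron of Erg, an ETS factor of stem cells, the gap was 38.6 points in WT and 51.4 in R878H/+ mice, and in an intron of Kit, the stem cell factor receptor, 43.2 and 35.6 points.

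**Figure D5:**
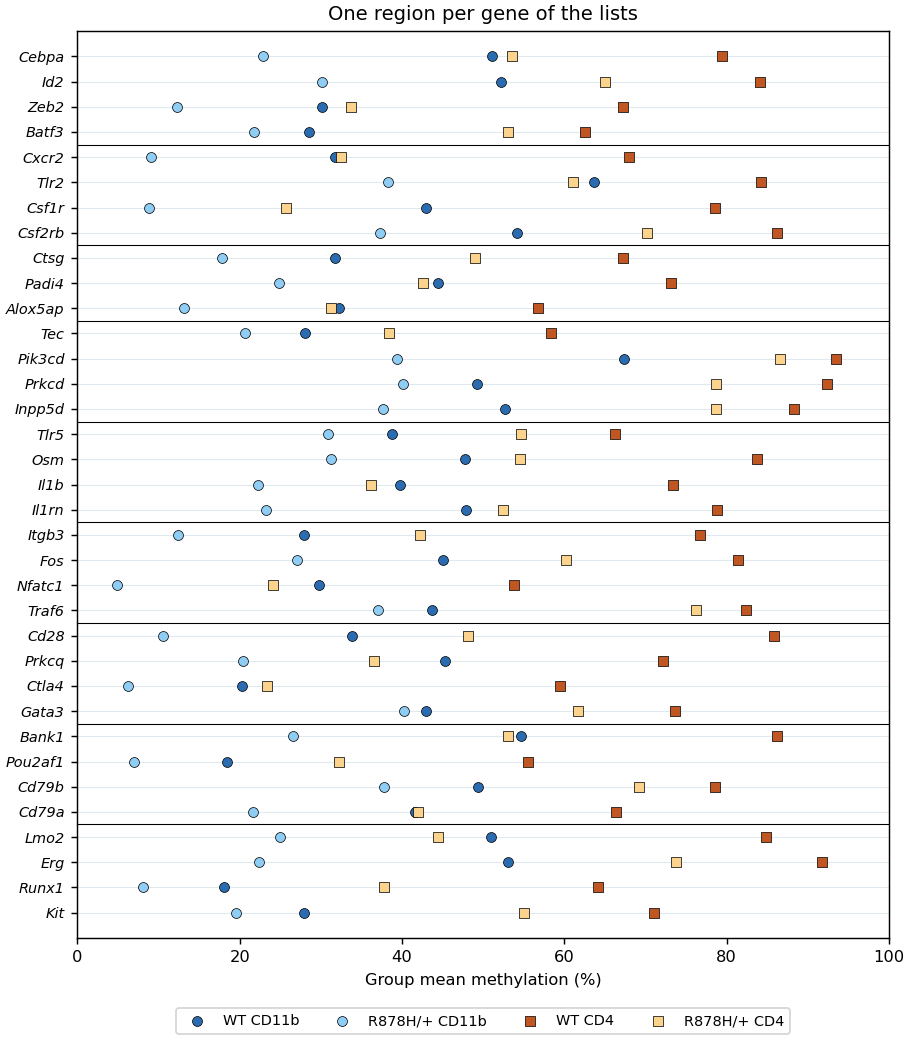
Group mean methylation in percent at 1 selected region for each of up to 4 genes per list, with circles for CD11b and squares for CD4 cells and the lighter shade for R878H/+ mice. Horizontal lines separate the lists, from myeloid transcription factors at the top to stem cell and erythroid genes at the bottom. Each point is a mean of 4 mice with no error available, and in every row shown the R878H/+ mean is below the WT mean of its cell type.

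The largest CD11b+ loss among selected regions, 53.2 points, was in the promoter of Nradd, in a stretch that also overlaps the gene Nbeal2. Methylation there fell from 56.7 to 3.48% in CD11b+ and from 78.4 to 18.1% in CD4+ cells. An intron of Tcf7l2, a TCF factor of WNT signalling, fell from 67.7 to 22.3% and from 91.0 to 43.1%, and an intron of Zfp608 from 55.3 to 10.3% and from 80.5 to 28.3%. These 3 regions lost more in CD4+ than in CD11b+ cells. In the other direction, R878H/+ CD11b+ means most exceeded WT near Eif3j2, at 61.5% against 38.9%, near 1 predicted gene, and in an intron of Rasgrf1 nearest to Ctsh, the cathepsin H gene, at 44.8% against 27.5%. Of the 24 regions whose R878H/+ gap was below 0, the promoter region of Nfic had the lowest gap, -12.5 points, and was singled out after its values were seen. It had 1.73% in WT and 16.9% in R878H/+ CD11b+ cells, against 24.9% and 4.35% in CD4+ cells, over stretches that overlapped by 53.1%.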

How the data were processed

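WGBS of splenic CD11b+ and CD4+ cells was analysed in 4 groups of 4 mice (18 label entries, since 2 mice of the R878H/+ CD11b group have 2 entries each). The authors mapped reads to mm10 with BISCUIT and ran metilene between genotypes within each cell type, with versions not given in the sources used here. The deposited tables hold group mean methylation in percent per region, with the number of CpG cytosines on both strands (at least 10). Their columns of q-values, p-values and genotype differences are the authors' own comparisons and were not used. In regions of at most 20 cytosines, the means were, within 0.0006 points, whole multiples of 1 percentage point over 4 times the number of cytosines, as for 4 equally weighted samples. The tables have no header and name no group; the first mean was read as WT, and all directions rest on this. Neither single-sample values (0 columns) nor depths are given, so nothing was tested over mice.

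The CD11b and CD4 tables held 411770 and 553467 regions, of which 407396 and 547975 were autosomal. Rows were paired by an overlap of at least 50% of both lengths, with pairing tested on simulated data. Coordinates count from 1. Genes were protein-coding genes of GENCODE M21, sequence came from GRCm38.p6, and Clec7a was not matched. Python 3.11.15, pandas 2.3.3, numpy 2.4.6, scipy 1.17.1, pysam 0.24.0 and matplotlib 3.10.9 were used. Named are the 10 regions with the largest WT gap and the 10 with the largest R878H/+ gap, the 10 genes nearest to the most regions, up to 4 genes per list with the most regions (ties by WT gap), each by its region with the largest WT gap, and the 3 extremes of CD11b loss in each direction. Predicted genes are counted only, and some genes that the rule names are not reported here. The regions and lists were chosen with earlier results of these data known. Alternatives were a stricter overlap, a wider gap, more cytosines, a wider promoter and the X chromosome. The X chromosome was otherwise left out.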

Additional observations from a re-analysis of the deposited data

How the results depend on the processing

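No paired analysis was possible because the tables hold group means only. With an overlap of at least 80%, 1858 regions were selected, with a median R878H/+ gap of 23.4 points, CD11b and CD4 losses of 19.8 and 21.8 points and 9.2% in promoters. At 95%, added after seeing the data, these values were 816, 23.1, 20.4, 22.7 and 6.99%. With a WT gap of at least 30 points they were 1403, 30.9, 15.6, 19.6 and 12.5%. With more than 10 cytosines in both tables they were 1742, 23.9, 19.4, 20.8 and 11.6%, and with at least 20 they were 191, 22.2, 23.1, 27.5 and 14.1%. Promoters of 2 kb held 16.9%, and the X chromosome added 12 regions, giving 5754. The median R878H/+ gap and both losses stayed positive in each of these subsets. The subsets were drawn from the main selected regions, so they are not independent checks. For the cytosine settings no matching promoter share of all shared regions was computed. The promoter share fell as the overlap rose, from 11.5 to 6.99% in selected and from 6.43 to 5.08% in all shared regions, and the cause was not tested. Without depth per region, the precision of a single region's mean is unknown.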
